A study of Homo sapiens with 8 samples.

Results

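The RNAs described here are 10 long non-coding RNAs: MALAT1 and NEAT1, which stay in the nucleus, and the small nucleolar RNA (snoRNA) host transcripts ZFAS1, GAS5, SNHG1, SNHG5, SNHG6, SNHG8, SNHG12 and SNHG15. They are represented by all rows of the authors' peak table that carry one of these names, which gave 22 rows on 9 of the 10 genes, of 22626 rows in all. SNHG12 is not analysed here. The RNAs were chosen by name, with earlier results of these data known. The study measured N6-methyladenosine (m6A), a methyl mark on adenosines of RNA, in HCT116 cells, a human colorectal cancer line. Pieces of poly(A)-selected RNA pulled down with an antibody against m6A (the immunoprecipitate, or IP) were read alongside input RNA that had not been selected. Its 8 libraries fall into 4 groups of 2 each. These are IP and input of shALKBH5 cells, a stable hairpin knockdown of the m6A demethylase ALKBH5, and IP and input of shNC cells, which carry the control hairpin and whose genotype is given as WT. Nothing in the labels says that the 2 libraries of a group came from separate cultures.

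MALAT1 is a long, mostly unspliced RNA of nuclear speckles, the bodies that hold splicing factors. Its 3′ end is cut by RNase P, which also releases a small tRNA-like RNA, mascRNA, and one of its methylated adenosines is known to sit in a hairpin bound by HNRNPC. NEAT1 is the scaffold of paraspeckles and is made as a short polyadenylated and a long isoform that begin at the same start. The host RNAs carry snoRNAs in their introns, and the snoRNAs guide chemical modification of ribosomal RNA. After splicing, the host exons are exported and many are destroyed by nonsense-mediated decay.

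The table gives 1 value per peak for the whole series and no value per library. Replicate errors and library depths therefore cannot be stated for any value below. The sources used here do not say which arm stands on top in the authors' log2 fold. Folds are therefore positive or negative, with no direction drawn for shALKBH5 cells, in which the level of ALKBH5 was not analysed here. They also do not say if the fold allows for the level of the RNA, so a difference in m6A and a difference in transcript level cannot be told apart. A peak is called where the difference has a false discovery rate (FDR) of at most 0.05 in the authors' table. Over all peaks, the median log2 fold was 0.14. Of the cell type markers fixed for the line, 5 of 9 colorectal epithelium genes had a peak, against 1 of 6 fibroblast genes and 0 of 6 leukocyte genes.

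Peaks of MALAT1, SNHG5 and SNHG8 ran across an annotated transcription start. Their start windows are shown because the peak's upstream edge can be read in them. Each window is RefSeq sequence of GRCh38.p14 and holds 250 bases before the start and 50 bases from it, and capitals mark the part that lies in the peak.
MALAT1, second annotated start, plus strand, chr11:65498795-65499094: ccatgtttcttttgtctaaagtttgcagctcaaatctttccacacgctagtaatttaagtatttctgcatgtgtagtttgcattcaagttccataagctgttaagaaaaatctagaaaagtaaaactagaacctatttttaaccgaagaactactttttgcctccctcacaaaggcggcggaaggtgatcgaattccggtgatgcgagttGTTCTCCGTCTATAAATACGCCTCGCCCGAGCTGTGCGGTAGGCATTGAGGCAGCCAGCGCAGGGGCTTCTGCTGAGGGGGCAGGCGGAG
SNHG5, minus strand, chr6:85678684-85678983: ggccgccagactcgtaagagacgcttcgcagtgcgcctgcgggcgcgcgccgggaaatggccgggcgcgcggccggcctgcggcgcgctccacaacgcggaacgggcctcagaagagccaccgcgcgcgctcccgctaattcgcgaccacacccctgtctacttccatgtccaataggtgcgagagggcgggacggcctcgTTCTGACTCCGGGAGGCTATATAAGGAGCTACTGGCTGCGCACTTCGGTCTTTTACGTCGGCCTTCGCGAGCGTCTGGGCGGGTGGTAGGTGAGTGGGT
SNHG8, plus strand, chr4:118278512-118278811: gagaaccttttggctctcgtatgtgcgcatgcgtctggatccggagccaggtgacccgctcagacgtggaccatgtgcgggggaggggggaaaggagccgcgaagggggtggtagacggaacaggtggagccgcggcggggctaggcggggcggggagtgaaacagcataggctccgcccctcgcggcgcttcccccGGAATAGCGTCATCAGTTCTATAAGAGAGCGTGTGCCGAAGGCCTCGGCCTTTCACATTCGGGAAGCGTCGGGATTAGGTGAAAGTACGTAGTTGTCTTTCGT
The peak edge lay 40 bases before this start in MALAT1, 49 bases before it in SNHG5 and 53 bases before it in SNHG8. The m6A writer complex is known to prefer adenosines in GGACT and related words. None of the 3 capital parts held GGACT or its shorter form GGAC, on either strand. For comparison, GGAC stood on the transcribed strand in 30.0%, 32.3% and 33.3% of all 35116 start windows when their last 90, 99 and 103 bases were read, and GGACT in 8.61%, 9.43% and 9.76%. On the other strand, GGAC stood in 28.6%, 30.8% and 31.7% of them and GGACT in 8.09%, 8.81% and 9.14%. Every GGACT is also a GGAC. The rest of each peak lies beyond the windows and was not searched, and neither were other related words. Capital bases before the start are not expected in an RNA that begins there.

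MALAT1 carried 5 peaks, which cover 4462 bases, or 50.8% of its 8779 annotated bases on chromosome 11 (GRCh38, 65497738 to 65506516, plus strand). The first peak is a block of 2963 bases, from 65499005 to 65501967, and makes up 66.4% of the bases in MALAT1 peaks. It stood 12.3-fold above input in the authors' deposited table, with a log10 p of the peak of -9070. Among all 22626 peaks, it ranked 31 by that p and 19 by length. The other MALAT1 peaks were shorter and weaker. The second, at 65502536 to 65503194, stood 4.74-fold above input in the authors' deposited table. The third, at 65503763 to 65504062, stood 1.9-fold above input and the fourth, at 65505110 to 65505229, 1.2-fold, in the authors' deposited table. The fifth, at 65505648 to 65506067, stood 2.58-fold above input in the authors' deposited table, and it ended 49 bases before mascRNA.

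The largest MALAT1 peak had a small negative fold with one of the smallest FDRs of the table. Its log2 fold was -0.29, with an FDR of 1.3e-42, in the authors' deposited table. The p of that difference ranked 28 of 22626, while 2.52% of the 1862 called peaks had a smaller absolute fold. Called peaks with a log10 p of the peak of at most -1000, of which there were 60, had a median absolute log2 fold of 0.35, against 1.1 over all called peaks. The third MALAT1 peak was also called in the authors' deposited table, with -0.25 and an FDR of 0.046. The second stood at 0.03 (FDR 0.57), the fourth at 0.17 (FDR 0.25) and the fifth at -0.07 (FDR 0.21) in the authors' deposited table, and none of these was called. The MALAT1 folds thus spanned -0.29 to 0.17, within 1 RNA. All 5 peaks share bases with TALAM1, an annotated antisense RNA that has no peak under its own name, and without stated strand-specific counting the 2 RNAs cannot be told apart. With the median of all peaks subtracted, the second peak stood at -0.11 (FDR 0.1) and the fifth, at -0.21, was called (FDR 3e-06). On simulated data, this recentring called more unchanged peaks than the nominal rate. The sources do not say whether the deposited p is one-sided, which the recentring assumed. When each p was doubled, the third peak was no longer called (FDR 0.091).

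**Figure D1:**
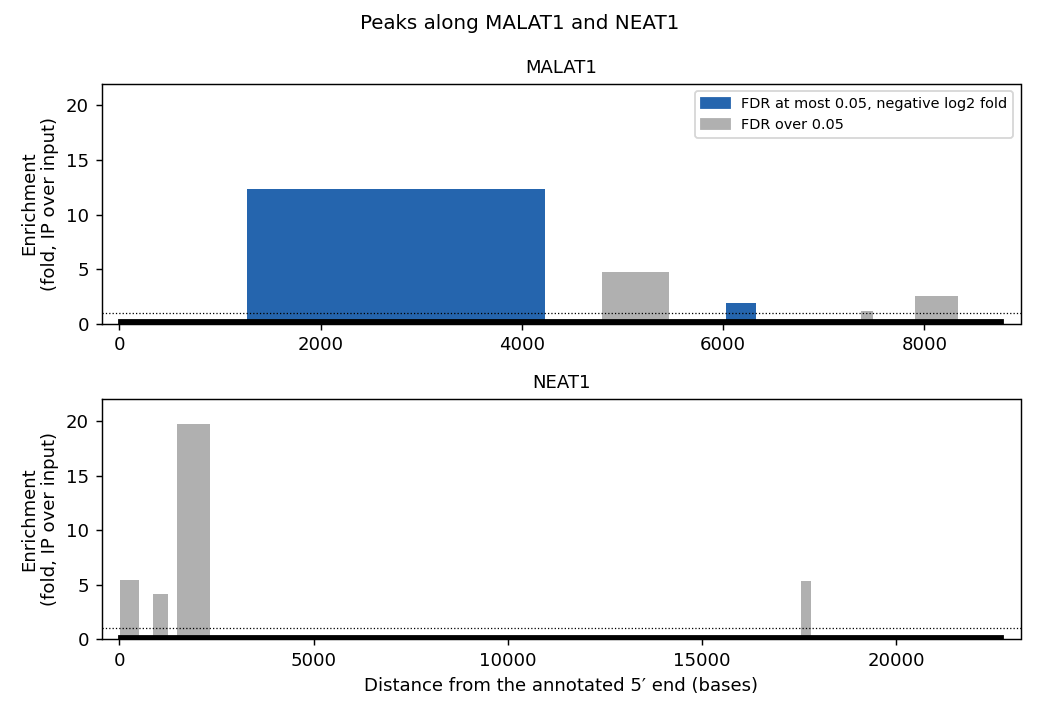
Peaks along MALAT1 and NEAT1. The x axis is the distance from the annotated 5′ end in bases, the height of each bar is the authors' enrichment of IP over input, its width is the extent of the peak, the black line is the gene, and the dotted line marks an enrichment of 1. Blue bars are called with a negative fold and grey bars are not called. The block of 2963 bases in MALAT1 stands at 12.3-fold, and 3 of 4 NEAT1 peaks lie within the first 2339 bases.

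NEAT1 had 7 rows, which are 4 peaks, since the table lists 3 of them again with slightly moved edges. With both listings joined, the 4 peaks cover 2041 bases, or 8.97% of 22743 annotated bases (chromosome 11, 65422798 to 65445540, plus strand). The first began 6 bases from the annotated 5′ end, at 65422804 to 65423312, and stood 5.43-fold above input in the authors' deposited table. The second, at 65423671 to 65424060, stood at 4.13-fold, and the third, at 65424270 to 65425137, at 19.7-fold in the authors' deposited table. The third is the most enriched of the MALAT1 and NEAT1 peaks, and stood at 20.3-fold in its second listing. A gap of 15218 bases separates it from the fourth, at 65440356 to 65440596, which stood at 5.31-fold in the authors' deposited table. This last peak lies in the stretch found in the long isoform alone. Since the RNA was poly(A)-selected, how well the long isoform was sampled is not known. The gap therefore cannot be read as a stretch without m6A. No peak covered MIR612, a microRNA gene within the long isoform, which begins 3861 bases after the fourth peak.

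No NEAT1 row was called. The 3 peaks near its 5′ end stood at -0.59 (FDR 0.43), -0.54 (FDR 0.24) and -0.34 (FDR 0.29) on the log2 scale in the authors' deposited table. Their second listings gave -0.56, -0.52 and -0.34, with FDRs of 0.45, 0.25 and 0.29, in the authors' deposited table. The fourth peak had the opposite sign in the authors' deposited table, at 0.68 with an FDR of 0.5. The difference between the 2 stretches was not tested. The negative folds of NEAT1 were larger than the called ones of MALAT1, on peaks whose log10 p in the authors' deposited table was -23.3 to -38.5.

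Of the 10 peaks on snoRNA host RNAs, 4 were called with a positive fold, on ZFAS1, SNHG1, SNHG5 and SNHG15, and 1 with a negative fold, on SNHG8. Over all peaks, 5.74% were called positive and 2.49% negative. The host peaks' median log2 fold was 0.77, against 0.14 over all peaks, and -0.32 for the 12 rows of MALAT1 and NEAT1. Those 12 rows count 3 NEAT1 peaks in both listings, and the host median includes the 2 rows that lie outside the annotated hosts. The contrast of these medians was not tested. No host peak shared a base with any of the 28 snoRNA genes that RefSeq places within the 7 hosts. Peaks are listed as exon blocks, so overlap with snoRNAs, which lie in introns, was hardly possible. Of the 8 host peaks that lie in the annotated host, 2 cover its 5′ end and 6 lie nearer its 3′ end, by their longest block. With the median of all peaks subtracted, the 5 host calls remained, at 1.23 for ZFAS1, 1.21 for SNHG1, 1.22 for SNHG15, 0.64 for SNHG5 and -1.44 for SNHG8.

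ZFAS1, which hosts 3 snoRNAs of the SNORD12 family and lies antisense to the start of ZNFX1, had the smallest FDR among the host RNAs. Its called peak has 2 exon blocks on chromosome 20 (plus strand), of 36 bases at 49281783 to 49281818 and of 264 bases at 49289045 to 49289308. The second block runs 48 bases past the annotated 3′ end. This peak had a log2 fold of 1.37 and an FDR of 1e-49 in the authors' deposited table, on an enrichment of 1.65-fold. The p of the difference ranked 26 of 22626, close to the large MALAT1 peak, whose absolute fold was far smaller. A second row under the name of ZFAS1 begins 6273 bases beyond the annotated gene. It stood at 27.6-fold enrichment and a log2 fold of 1.5, with an FDR of 0.66, by the authors' deposited table. Since it lies outside the annotated gene, that row is uncertain as a ZFAS1 peak.

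SNHG1 and SNHG15 were called with positive folds at their 3′ ends. SNHG1 (chromosome 11, minus strand) hosts 9 annotated snoRNA genes, and its peak at 62852044 to 62852223 was centred 156 bases from the 3′ end. The SNHG1 log2 fold was 1.35 (FDR 5.4e-05), on an enrichment of 1.48-fold, in the authors' deposited table. The peak was itself weak, with a log10 p of -2.65 in the authors' deposited table, against a median of -8.20 over all peaks. SNHG15 (chromosome 7, minus strand) hosts SNORA9, and its peak at 44983023 to 44983262 was centred 120 bases from the 3′ end. For SNHG15 the log2 fold was 1.36 (FDR 0.0014), on an enrichment of 3.64-fold, in the authors' deposited table. The folds of ZFAS1, SNHG1 and SNHG15 thus lay between 1.35 and 1.37, at enrichments of 1.48 to 3.64-fold.

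SNHG5, which hosts SNORD50A and SNORD50B, differed from these hosts in place and in strength. Its peak of 599 bases on chromosome 6 (85678184 to 85678782, minus strand) covers the start shown above and the first 549 bases after it. Per the authors' deposited table it stood 12.4-fold above input, with a log10 p of -304, a log2 fold of 0.78 and an FDR of 0.0021. A peak of an unnamed gene model on the same strand covers nearly the same bases and was called too, with 0.72 and an FDR of 0.0055 by the authors' deposited table. The 2 rows cannot be told apart as separate RNAs.

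SNHG8, which hosts SNORA24, was the host with a called negative fold. Its peak at 118279606 to 118279845 (chromosome 4, plus strand) was centred 98 bases from the annotated 3′ end and ran 22 bases past it. Its log2 fold was -1.3 (FDR 0.00038), on an enrichment of 3.09-fold, in the authors' deposited table. The peak across the SNHG8 start, at 118278709 to 118278888 and shown above, had -0.15 (FDR 0.64) at 3.21-fold in the authors' deposited table. A further row, at 118281728 to 118282207, begins 1905 bases past the annotated SNHG8 and overlaps a peak of PRSS12 on the other strand. It had 0.77 (FDR 0.46) at 7.45-fold in the authors' deposited table, and the PRSS12 row 0.67 (FDR 0.51). Which of the 2 genes that row belongs to cannot be told from the table.

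GAS5 and SNHG6 had 1 peak each, and neither was called. GAS5 hosts 11 annotated snoRNA genes on chromosome 1 (minus strand). Its peak of 121 bases, at 173864617 to 173864737, lies between SNORD47, at a distance of 171 bases, and SNORD80, at 95 bases. The GAS5 log2 fold was 0.56 (p = 0.048, FDR 0.24 over all peaks), on an enrichment of 1.41-fold, in the authors' deposited table. The SNHG6 peak (chromosome 8, minus strand) has blocks at 66921951 to 66922114 and 66922271 to 66922374 and ends 99 bases from SNORD87. Its log2 fold in the authors' deposited table was -0.01 (FDR 0.67) at 2.06-fold, the smallest absolute fold among these RNAs. MCMDC2, on the other strand, has an overlapping peak in the authors' deposited table, with a log2 fold of 0.42 and an FDR of 0.57.

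**Figure D2:**
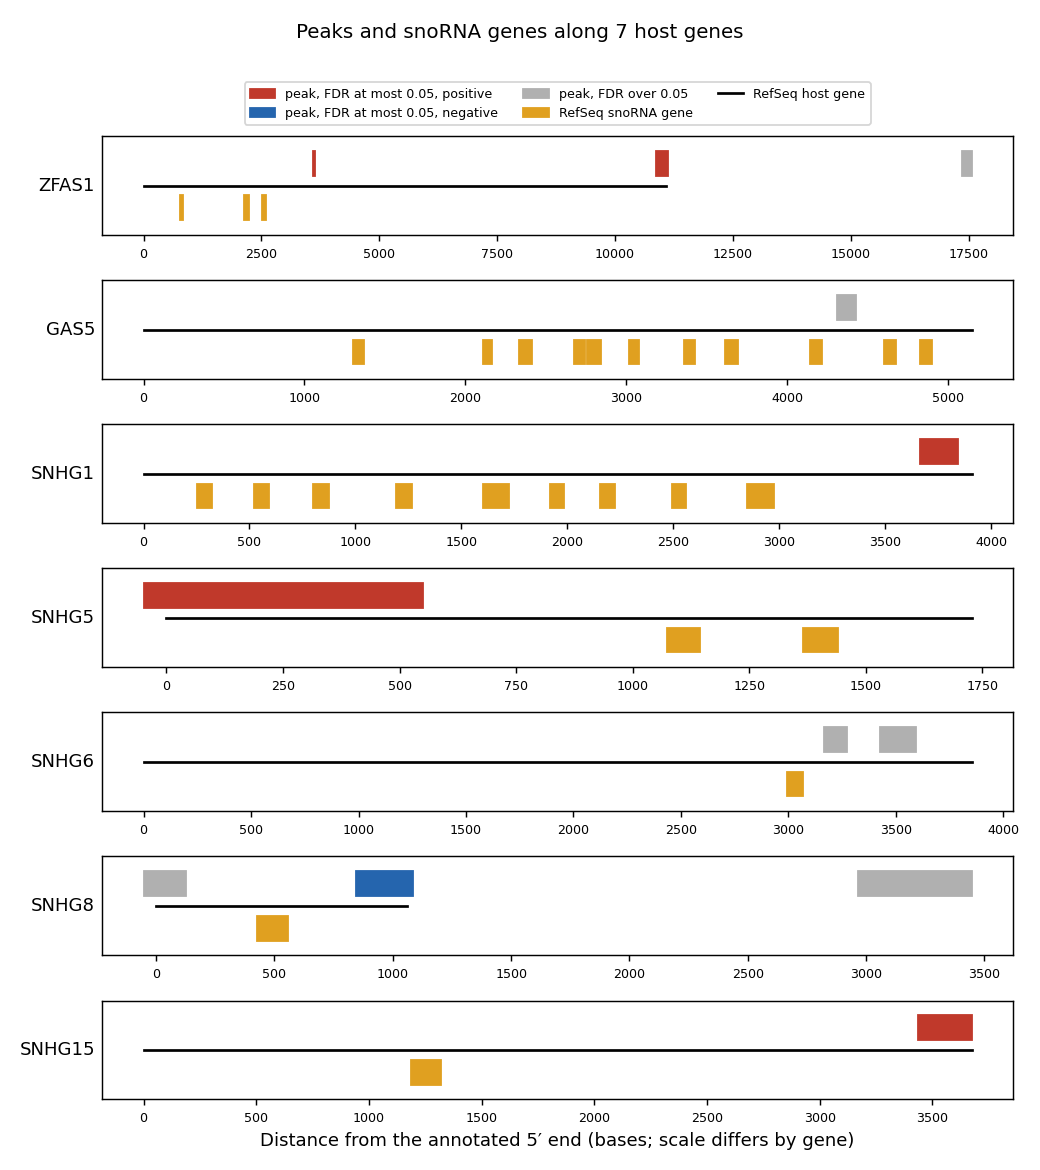
Peaks and snoRNA genes along 7 host genes. The x axis is the distance from the annotated 5′ end in bases, with a scale of its own for each gene; boxes above the black gene line are peak blocks, coloured by call, and orange boxes below it are RefSeq snoRNA genes. No peak block stands over a snoRNA box, but blocks are exonic and snoRNAs lie in introns, so overlap was hardly possible. For ZFAS1 and SNHG8, 1 row each lies beyond the annotated gene.

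Of all 22 rows, 7 were called (31.8%), against 8.23% of the authors' deposited table. The 4 positive and 3 negative calls stand beside 5.74% and 2.49% over all peaks. The members were chosen by name with results known, so these shares are a description and carry no test. Their peaks were also stronger, with a median log10 p of the peak of -25.5, against -8.20 over all peaks, and the part of this in the calls was not tested. Under the other call rules, the backgrounds were as follows. At an FDR of 0.01, 3.63% of all peaks were positive and 1.36% negative, and at an unadjusted p of 0.05, 12.9% and 7.0%. With p doubled they were 4.57% and 1.78%, and with the folds recentred 4.13% and 3.66%, or 934 positive and 827 negative calls against 1298 and 564 as deposited.

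**Figure D3:**
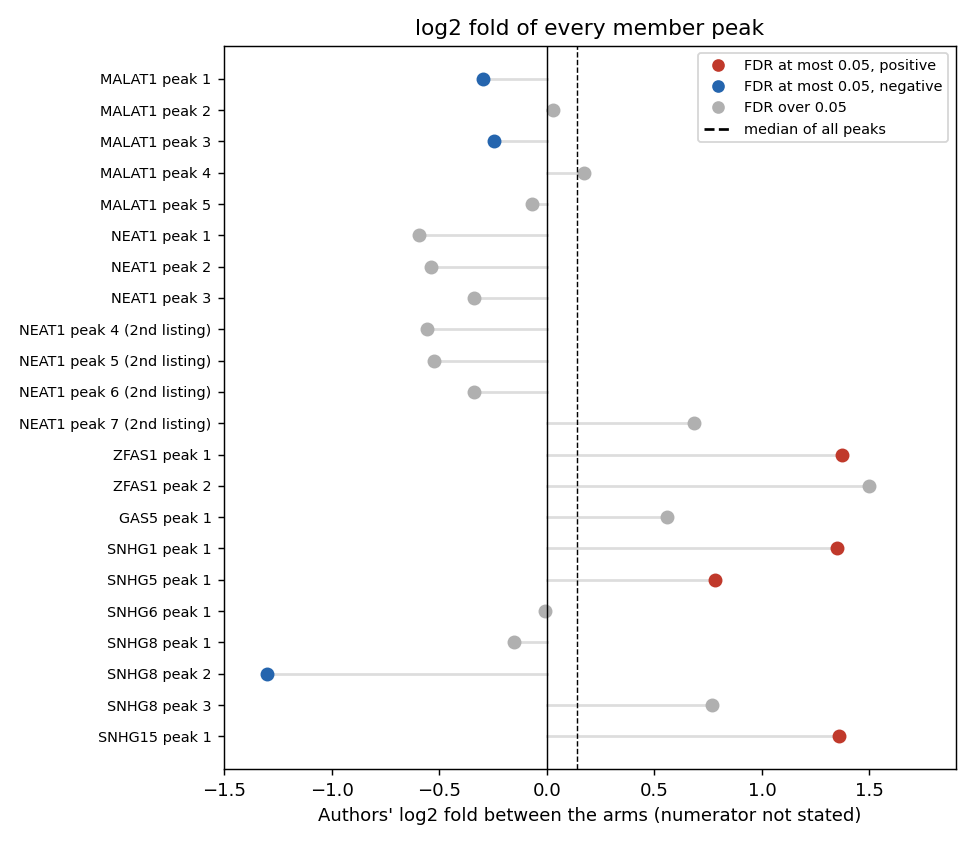
Log2 fold of every row of the 9 RNAs. The x axis is the authors' log2 fold between the arms, with the numerator not stated, each point is 1 row, colours give the call at an FDR of 0.05, and the dashed line is the median of all peaks, 0.14. Called positive folds stand at 0.78 to 1.37 on host RNAs, and the called MALAT1 folds at -0.29 and -0.25.

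**Figure D4:**
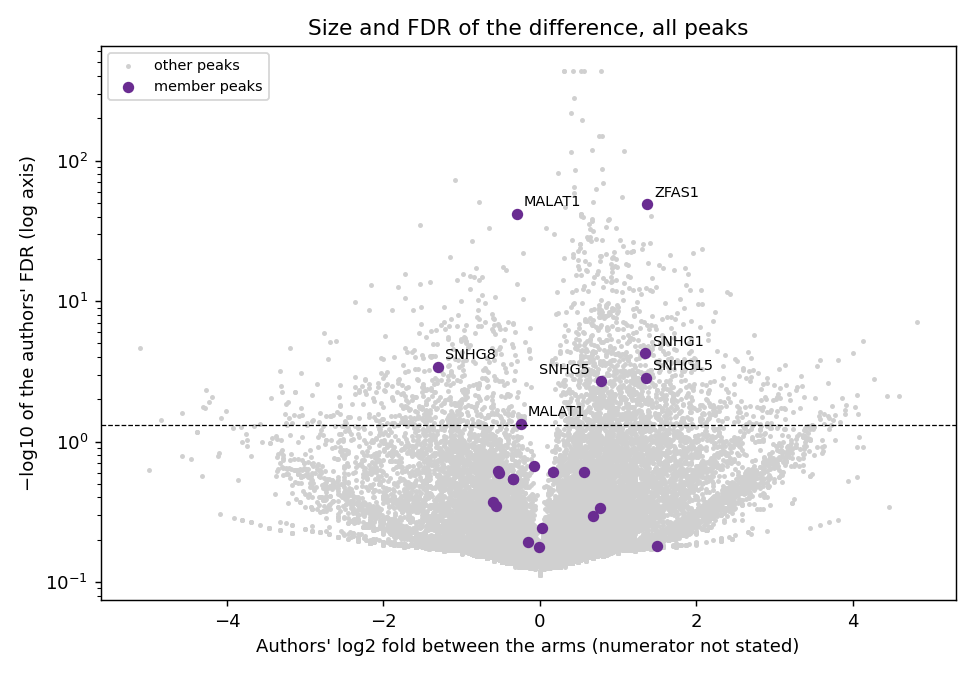
Size of the difference and its FDR for all 22626 peaks. The x axis is the authors' log2 fold, the y axis is −log10 of the authors' FDR on a log axis, purple points are the 22 member rows, and the dashed line is an FDR of 0.05. The MALAT1 peak at -0.29 and the ZFAS1 peak at 1.37 stand at nearly the same height.

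Enrichment was lower for most rows of these RNAs than the median of all peaks, as a description with no test. The median over the 22 rows was 4.09-fold, with quartiles of 2.19 and 6.95, against 11.8-fold on 698 peaks of other long non-coding RNAs and 10.1-fold over all peaks. Of the 22 rows, 17 lay below the median of all peaks. Low medians were also found for protein-coding snoRNA hosts, at 4.23-fold, with 59 of 74 peaks below the median of all peaks. Those of snoRNA particle proteins (5.06-fold), paraspeckle proteins (5.74-fold) and other long non-coding snoRNA hosts (7.15-fold, with the protein-coding TMEM107 among them) were low too. The colorectal epithelium markers, which are not tied to snoRNAs or paraspeckles, stood lower, at 2.56-fold, with 9 of 12 peaks below the median of all peaks. Factors of nonsense-mediated decay were not low, at 10.4-fold, with 13 of 29 peaks below it. An enrichment of at most 2 was found for 5 rows, on MALAT1 (2 rows), ZFAS1, GAS5 and SNHG1, and for 2.65% of all peaks. The rows ranged from 1.2-fold on MALAT1 to 27.6-fold on the uncertain ZFAS1 row. Only 2 of the 22 rows spanned more than 1 exon block (9.09%), against 30.4% of all peaks.

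**Figure D5:**
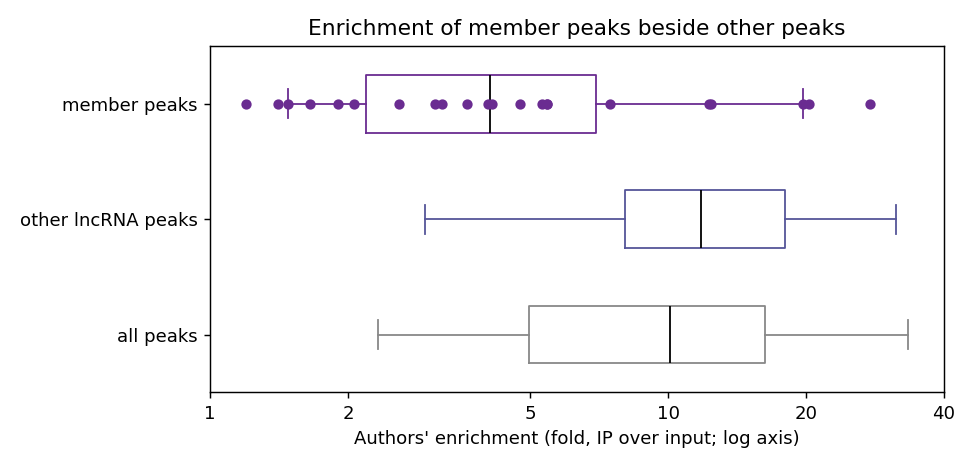
How far each peak stands above input, on a log axis. Boxes give the median and quartiles and whiskers the 5th and 95th percentiles of the 22 member rows, of 698 peaks of other long non-coding RNAs and of all 22626 peaks, and points are the member rows. The member median of 4.09-fold stands left of 11.8 and 10.1-fold.

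Other long non-coding snoRNA hosts carried called peaks of both signs. Of 26 genes listed, 7 carried peaks, among them TMEM107, a protein-coding gene whose peak was not called (-1.86, FDR 0.6). Positive calls fell on 2 of the 7 genes and negative calls on 2, and 6 of their 12 peaks were called against 8.23% of all peaks. All 3 peaks of SNHG16 were called positive, at 0.5, 0.68 and 0.79, with FDRs of 1.4e-07, 3.9e-05 and 4.3e-09, in the authors' deposited table. EPB41L4A-AS1 stood at 2.74 (FDR 1.9e-06), SNHG7 at -0.78 (FDR 0.0089) and SNHG22 at -2.81 (FDR 0.025) in the authors' deposited table. Another SNHG22 peak, at -0.15 with FDR 0.27 per that table, was not called. As a peak it was far stronger, with a log10 p of -229 against -6.69 for the called SNHG22 peak. With folds recentred, both SNHG22 peaks were called. Across the 12 peaks of these hosts, the median log2 fold was -0.16. Of 46 protein-coding snoRNA hosts listed, 35 carried peaks. Positive calls fell on 14 and negative calls on 3, with 20 of 74 peaks called (27.0%), and the median log2 fold was 0.29. Examples called in that list were, in the authors' deposited table, the ribosomal protein genes RPL10 at 1.08 (FDR 1e-117), RPS20 at 0.49 (FDR 2e-20) and RPL13 at 0.48 (FDR 1.6e-18), and the elongation factor gene EEF2 at -0.21 (FDR 1.3e-22).

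Genes of the paraspeckle, in which NEAT1 acts, had a called share near that of all peaks. Of 20 listed, 19 had a peak, and 3 of their 49 peaks were called (6.12%), against 8.23% of all peaks, with a median log2 fold of 0.05. In the authors' deposited table the called PSPC1 peak stood at 2.49 (FDR 0.0028) and that of NONO, a core protein of the body, at 0.79 (FDR 0.0034). The called peak of the cold-inducible protein gene CIRBP stood at -1.72 (FDR 0.016). Peaks not called had both signs on PSPC1 (-0.56 and 1.56) and on CIRBP (-1.82 to 1.35). Those of NONO were positive.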

How the data were processed

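The deposited file is 1 list of 22626 peaks from the authors, with exon blocks, gene identifier and name. BWA 0.7.12, HOMER 4.9.1 and GRCh38 are listed, without their roles, per the submitters' processing notes. Which program made or compared the peaks is therefore unknown. Per the file headers, the deposited values are a p-value of each peak, given as a score and as log10, a fold enrichment (linear, taken here as the ratio of IP to input), and a log2 fold between the arms with its log10 p and log10 FDR. Whether the authors' p reflects replicate spread is not given, and the largest p of a difference was 0.773. Several antibodies against m6A, fragment sizes and platforms appear in the labels' protocols.

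Members and gene lists were chosen with earlier results of these data known. All 10 symbols matched the RefSeq gene table of GRCh38.p14, and start windows come from RefSeq. Starts were made 1-based. Rows from where the chromosome order begins again (565 rows) are called the second listing. Merging peaks whose exon blocks overlapped by 1 base or more, whatever their strand, left 20560 loci. Calls were also made at an FDR of 0.01, at an unadjusted p of 0.05, with p doubled, and with folds recentred on the median of 0.14. For recentring, a standard error came from fold and p (11573 peaks with p under 0.3) or from a regression on peak p, enrichment and length (11053 peaks). The deposited p was taken as one-sided for this, which the sources do not state. The new p was adjusted over all peaks by the Benjamini-Hochberg method. The recentred p is one-tailed. Tested on simulated data, this step recovered the known shift and the changed peaks, but called more unchanged peaks than the nominal rate. Named genes are all members and, from each list, up to 4 called genes, up to 2 uncalled ones where fewer than 2 were called, and genes whose peak overlaps a member's. One such overlap is not reported here. No likeness to other genes over libraries was computed. Python 3.11.15, numpy 2.4.6, pandas 2.3.3, scipy 1.17.1 and matplotlib 3.10.9 were used.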

Additional observations from a re-analysis of the deposited data

How the results depend on the processing

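No paired analysis was possible because the table holds no value per library, and for the same reason no library could be left out. Positive member calls numbered 4 at an FDR of 0.01, with p doubled, with folds recentred, with overlapping peaks merged and without the second listing, an alternative chosen after seeing the data. With peaks of a log10 p of at most -10 the count was 3 positive, as SNHG1 was left out by construction, and at an unadjusted p of 0.05 it was 6. Negative member calls numbered 2 at an FDR of 0.01 and with p doubled, 4 with folds recentred, 3 under the merging, peak strength and second-listing settings, and 5 at an unadjusted p of 0.05. The member rows of the second listing are all uncalled, so leaving them out could not change the member counts. Doubling p about doubled each FDR, so a call that held at 0.01 could not be lost by it. Merging kept the row with the smallest p at each locus, so a member call could be lost only to an overlapping row with a smaller p. Over all peaks, an FDR of 0.01 gave 821 positive and 307 negative calls and an unadjusted p of 0.05 gave 2910 and 1583, against 1298 and 564 as deposited. Recentring gave 934 and 827, doubling p 1035 and 403, merging 1193 and 518, the peak strength setting 1083 and 467, and leaving out the second listing 1274 and 546. The median enrichment of the member rows, 4.09-fold, was 3.64-fold with overlapping peaks merged, 4.44-fold among peaks with a log10 p of at most -10, and 3.42-fold without the second listing. The causes were not tested beyond the rows each setting leaves out. Depth is unknown, so no floor or counting interval can be given for any peak.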

Other observations

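Proteins that assemble snoRNAs into particles, and factors of nonsense-mediated decay, the pathway that degrades many spliced host RNAs, had called shares near the 8.23% of all peaks. Of 16 listed genes of snoRNA particles, 15 had a peak, and 2 of their 21 peaks were called (9.52%). The called peaks stood at 4.0 on NAF1 (FDR 5.1e-05) and -1.19 on RUVBL1 (FDR 0.036) in the authors' deposited table. A further RUVBL1 peak, not called, stood at 1.08 (FDR 0.098). Of 14 listed decay factors, 13 had a peak, and 2 of 29 peaks were called (6.9%). Those stood at 1.04 on CASC3 (FDR 0.01) and 0.76 on EIF4A3 (FDR 0.026) in the authors' deposited table. Other CASC3 peaks, not called, ran from -1.15 (FDR 0.35) to 0.28 (FDR 0.69). With p doubled, the RUVBL1 and EIF4A3 calls were lost, and with folds recentred that of EIF4A3.

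The calls and enrichment of other abundant or nuclear long non-coding RNAs are given as a description. Of 31 listed, 17 had a peak, and 1 of 53 peaks was called (1.89%), against 31.8% of the 22 rows above and 8.23% of all peaks. It belongs to UCA1, at 0.31 with an FDR of 0.0019 by the authors' deposited table, and the call was lost with folds recentred. The median enrichment of the 53 peaks was 14.1-fold, against 4.09-fold over the 22 rows and 10.1-fold over all peaks. As peaks they were weaker than the 22 rows, with a median log10 p of the peak of -7.04 against -25.5. The part of this in the called shares was not tested. Overlapping rows are counted in both sets, since the 53 peaks lie at 48 loci and the 22 rows at 19. Of the peaks not called, the 6 of FIRRE ran from -1.58 to 2.12 on the log2 scale, the smallest FDR being 0.052 at 0.88, by the authors' deposited table. The FGD5-AS1 peak stood at -0.64 with an FDR of 0.078 by the authors' deposited table. With folds recentred, the FGD5-AS1 peak was called.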
